A study of Pyrus communis with 12 samples.

Results

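The skins of young fruits of ‘Red Clapp Favorite’ (‘RCF’), a red-skinned bud sport of the European pear ‘Clapp Favorite’ (‘CF’), were compared between 5 and 2 days after full bloom (DAFB). The comparison is of the 3 libraries of ‘RCF2’ (‘RCF’, 5 DAFB) with the 3 libraries of ‘RCF1’ (‘RCF’, 2 DAFB), 6 of the 12 libraries of the study. The other 6 libraries, ‘CF2’ (‘CF’, 5 DAFB) and ‘CF1’ (‘CF’, 2 DAFB), served to test whether a change differed between the sport and its parent. All trees had the same age and rootstock, the labels name no treatment, and skins of pooled fruits made up each replicate. Fruits at 2 DAFB were taken while both cultivars were green and fruits at 5 DAFB once their colours had parted, so the stages were also chosen by skin colour. Each stage was sampled on a single day, so stage and sampling day cannot be told apart. The study calls the replicates independent, and whether they came from different trees is not given. Of the 42760 genes in the deposited table, 25707 had an FPKM (fragments mapped to a gene, scaled to the gene's length and the library's mapped fragments) of at least 1 in at least 3 of the 12 libraries, and these were tested.

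At these stages the young pear fruit has just been set. Growth of the fruit wall rests first on cell division and then on cell expansion, while the epidermis lays down its cuticle and the organs of the flower wither. Anthocyanins, the red pigments, are made from phenylalanine through the phenylpropanoid and flavonoid pathways and stored in the vacuole.

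The 6 libraries had similar sums of FPKM, between 576313 and 583698 in ‘RCF2’ and between 601433 and 611221 in ‘RCF1’. Across genes, Pearson's r of log2(FPKM + 1) was between 0.9885 and 0.9906 for replicates of ‘RCF2’, between 0.9833 and 0.9863 for replicates of ‘RCF1’, and between 0.8903 and 0.9180 for libraries of different stages. Replicate 1 of ‘RCF1’ lay furthest from ‘RCF2’, with r between 0.8903 and 0.8950. For replicates 2 and 3 of ‘RCF1’ r was between 0.9124 and 0.9180. Families taken as markers of the epidermis were expressed, but such families also hold members of other tissues. The 85 genes listed as lipid transfer proteins, some of which carry cuticle lipids, share a broad domain name with bifunctional inhibitors and seed storage proteins. They summed to between 9971 and 12366 FPKM in ‘RCF2’ and between 8913 and 9833 FPKM in ‘RCF1’, with 16 at 0 in all 6 libraries. Fatty acid hydroxylases summed to between 171 and 182 FPKM in ‘RCF2’ and between 166 and 174 FPKM in ‘RCF1’, and 1 of their 18 listed genes was at 0 in all 6 libraries. Only 1 gene carried the domain name of the FAE1-type 3-ketoacyl-CoA synthases, which build wax precursors, and it was at 0.827 to 1.37 FPKM in ‘RCF2’ and 1.22 to 1.80 FPKM in ‘RCF1’. MADS-box genes, which specify flower organs, summed to between 699 and 751 FPKM in ‘RCF2’ and between 768 and 812 FPKM in ‘RCF1’, with 33 of 109 at 0 in all 6 libraries.

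More genes fell than rose. Genes with an unadjusted P under 0.05 were called when they changed by 1 or more on the log2 scale. By this rule 910 genes (3.54% of those tested) had risen in ‘RCF2’ and 1726 genes (6.71%) had fallen. Of these, 908 and 1715 also had an adjusted P under 0.05, and at that threshold without a minimum fold change 5759 genes (22.4%) were higher and 5511 (21.4%) lower at 5 DAFB. The median log2 fold change over all tested genes was 0.02. Replicate 1 of ‘RCF1’ was the lowest library of its group in 529 of the 910 risen genes, but in only 136 of the 1726 fallen genes. Without that library 821 genes had risen and 1598 had fallen. Falls were the steeper changes, since 459 of the fallen genes (26.6%) but 94 of the risen genes (10.3%) changed by at least 2 on the log2 scale. Fold changes were taken on log2(FPKM + 1), so changes of weakly expressed genes appear smaller than they are. In whole skins, fewer cells of a type and less RNA per cell cannot be told apart.

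Among domain families with at least 10 tested genes, 421 in all, 17 had at least 20% of their genes risen, 40 had at least 20% fallen and 129 had none called. The families with the largest shares risen were the fasciclin domain FAS1 (7 of 16), the dirigent proteins (6 of 14), the pectate lyases (7 of 18), the major latex proteins (3 of 10), the laccases (6 of 21) and the annexins (3 of 11). Most of these families have members in the cell wall. The dirigent proteins are named plant disease resistance response protein in the table. The largest shares fallen were in the Bet v I family (18 of 24), the SWEET sugar transporters, named RAG1-activating protein in the table (6 of 10), the bulb-type lectins (6 of 12), the senescence regulators (6 of 12), the DUF506 proteins (6 of 15) and the pectinesterase inhibitors (9 of 24). Large families with many falls were the UDP-glycosyltransferases (37 of 106), the WRKY factors (20 of 59) and the VQ proteins (10 of 31). No WRKY factor and no VQ protein had risen.

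**Figure D1:**
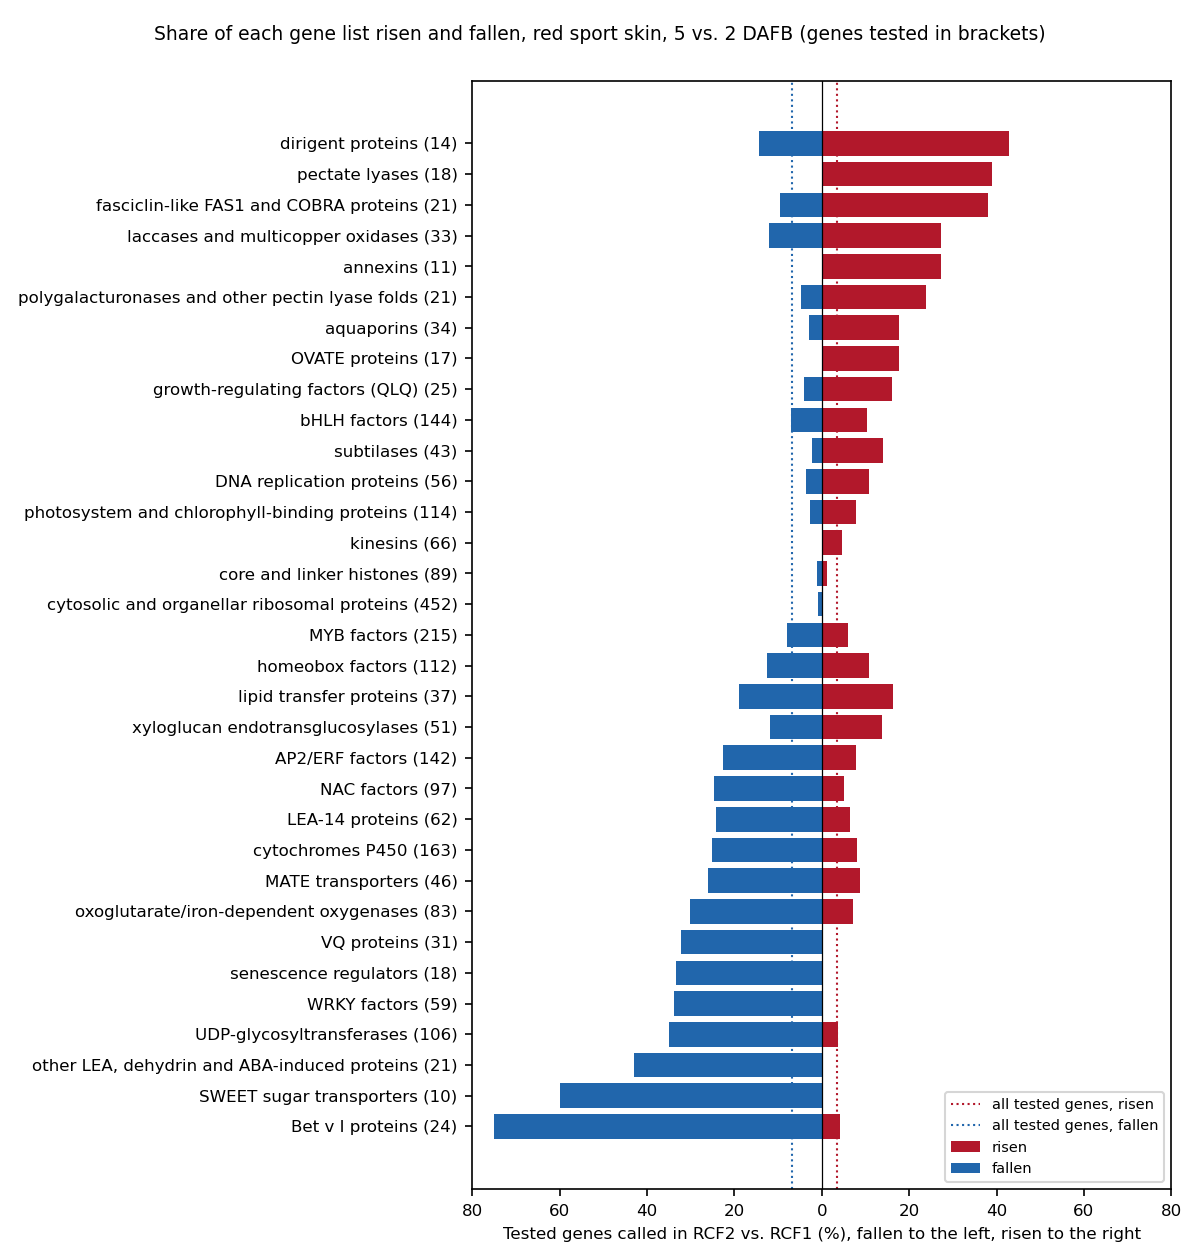
Shares of the tested genes of 33 gene lists called in ‘RCF2’ vs. ‘RCF1’ (horizontal axis, %; fallen drawn to the left, risen to the right; number tested in brackets), with dotted lines at the shares over all tested genes, 6.71% fallen and 3.54% risen. Cell wall families stand at the top with 42.9% of dirigent proteins and 38.9% of pectate lyases risen, and Bet v I proteins at the bottom with 75.0% fallen.

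Single genes of several steps of anthocyanin synthesis rose in ‘RCF2’, while most members of the gene lists that hold them were not called. The lists were made from words of the domain names. Of these lists, 1 of 8 phenylalanine ammonia-lyases, 5 of 41 acyl-activating enzymes (7 fell), 3 of 33 chalcone and other polyketide synthases and 2 of 8 chalcone isomerases rose. The 33 include 30 genes with the broad domain name thiolase-like, none of which rose. Several of the genes described were picked out by the study from these same libraries, so their direction is no independent evidence. The genes of chalcone synthase (CHS, PCP023048, scaffold00375, bases 176126 to 177777), anthocyanidin synthase (ANS, PCP027029, scaffold02897, bases 18886 to 20356) and chalcone isomerase (CHI, PCP021141, scaffold00134, bases 248986 to 251069) are among those for which the study designed primers for quantitative PCR. The same was done for HB7 (PCP014697, scaffold00110, bases 154716 to 155980), a homeobox gene that fell. All 4 are on the plus strand of scaffolds as listed in the table. The study names an apple genome as the mapping reference, whereas the table has its own gene and scaffold names, so the assembly behind these positions is unsettled. Their primer pairs are shown because they mark the transcripts that stand for the rise and the fall, from 5′ to 3′, and no base is set apart in capitals.
CHS forward: acatctccgtgaagtagg
CHS reverse: aatccagaagagcgagtt
ANS forward: gaggctggagaaagaagt
ANS reverse: gttgtggaggatgaaggt
CHI forward: gctgaaattgtttcacatct
CHI reverse: gctgcactccatattgtg
HB7 forward: agactagaagaggaattggag
HB7 reverse: cagaatgctgcctgaatc

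At the entry to the pathway, phenylalanine ammonia-lyase PAL1 (PCP018639) had 69.98, 65.8 and 60.7 FPKM in ‘RCF2’, against 19.8, 21.1 and 17.5 FPKM in ‘RCF1’. Further on, 4-coumarate-CoA ligase 4CL1 (PCP003610) had 65.4, 60.8 and 60.5 FPKM in ‘RCF2’, against 11.4, 11.8 and 14.6 FPKM in ‘RCF1’. In both genes the lowest ‘RCF2’ library was far above the highest ‘RCF1’ library, and the log2 fold changes were 1.70 ± 0.09 (SE) and 2.22 ± 0.10. CHS, which makes the first flavonoid skeleton, had 39.5, 34.97 and 35.8 FPKM in ‘RCF2’, against 0.750, 2.16 and 1.48 FPKM in ‘RCF1’. This was the second-largest rise of all tested genes, with a log2 fold change of 3.98 ± 0.19 and an adjusted P of 9.26e-06. A second chalcone synthase gene next to it, PCP023049, rose by 1.77 ± 0.10 on the log2 scale. Over all 33 chalcone and other polyketide synthases none fell and the median log2 fold change was -0.13, with 7 higher and 10 lower at an adjusted P under 0.05. The 30 thiolase-like genes among them gave 4 of the higher and all 10 of the lower genes. All 3 risers carried other domain names. PAL1 was the only riser of its family.

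CHI, which closes the flavanone ring, had 33.5, 23.5 and 30.9 FPKM in ‘RCF2’, against 4.05, 4.31 and 3.90 FPKM in ‘RCF1’, and its paralog PCP039844 had 133, 106 and 124 FPKM in ‘RCF2’, against 22.02, 26.9 and 25.7 FPKM in ‘RCF1’. They were the only risers of 8 tested chalcone isomerases, whose median log2 fold change was 0.12, with 2 higher and 3 lower at an adjusted P under 0.05. Flavanone 3-hydroxylase F3H (PCP013732) reached 208, 172 and 197 FPKM in ‘RCF2’, against 36.9, 38.9 and 41.8 FPKM in ‘RCF1’. The cytochrome P450 gene PCP020121, named in the study's annotation as a flavonoid 3′-monooxygenase, which sets the hydroxylation pattern of the pigment, had 28.1, 23.1 and 30.97 FPKM in ‘RCF2’, against 2.07, 1.48 and 1.75 FPKM in ‘RCF1’. Its rise of 3.36 ± 0.13 was larger than that of CHI (2.56 ± 0.13) or F3H (2.26 ± 0.09). ANS, which forms the coloured anthocyanidins, had the highest level at 5 DAFB of the genes described here for this pathway, but not at 2 DAFB, with 292, 236 and 248 FPKM in ‘RCF2’, against 16.04, 22.1 and 17.3 FPKM in ‘RCF1’, a log2 fold change of 3.75 ± 0.13 and an adjusted P of 2.63e-06. FPKM is scaled to gene length, so levels can be set side by side between genes.

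The later steps moved less. The UDP-glycosyltransferase PCP018161, annotated as an anthocyanidin 3-O-glucosyltransferase, had 26.8, 27.5 and 22.8 FPKM in ‘RCF2’, against 9.87, 9.94 and 10.8 FPKM in ‘RCF1’, a log2 fold change of 1.25 ± 0.09. GSTF12 (PCP025171), a glutathione S-transferase of the type that carries anthocyanins to the vacuole, had 234, 177 and 174 FPKM in ‘RCF2’, against 84.6, 106 and 96.9 FPKM in ‘RCF1’. Its log2 fold change was 1.01 ± 0.13, just past the threshold, and was 0.87 without ‘RCF2’ replicate 1 and 0.92 without ‘RCF1’ replicate 1, which ended the call. It was the only one of 44 tested glutathione S-transferases to rise (0 to 2 rose with a library left out), while 10 fell. The regulators named here were at low FPKM. MYB10 (PCP035580), an activator of anthocyanin genes in apple and pear, had 1.55, 1.82 and 1.62 FPKM in ‘RCF2’, against 0.334, 0.112 and 0 FPKM in ‘RCF1’, and MYB111 (PCP037215), a flavonol regulator in Arabidopsis, had 2.77, 1.90 and 2.82 FPKM in ‘RCF2’, against 0.393, 0.549 and 0.661 FPKM in ‘RCF1’. MYB114 (PCP008283) had 6.31, 3.63 and 5.29 FPKM in ‘RCF2’, against 2.19, 2.86 and 2.99 FPKM in ‘RCF1’, a difference of 0.70 ± 0.18 on the log2 scale that was under the fold threshold although its adjusted P was 0.0136. Among 215 tested MYB genes 13 rose and 17 fell, with a median of 0.02, as over all genes.

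**Figure D2:**
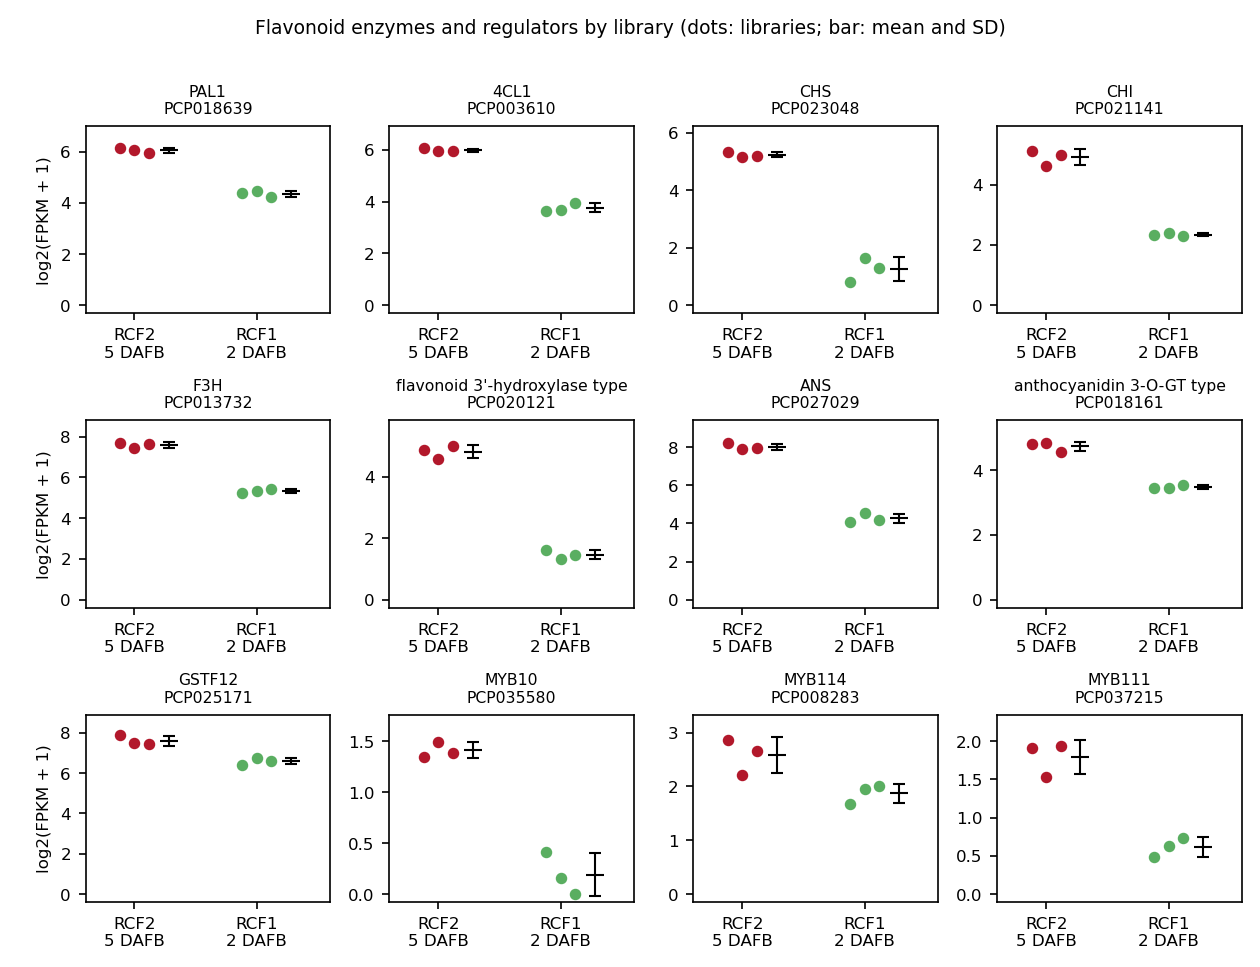
Level of 12 flavonoid genes in log2(FPKM + 1) (vertical axis, a scale for each panel) in the 3 libraries of ‘RCF2’ (red, left) and of ‘RCF1’ (green, right), with the mean and SD of each group as a bar. The groups do not overlap in any panel, as for 56.5% of all tested genes, and the gap is widest for CHS and ANS, with log2 fold changes of 3.98 and 3.75.

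Genes that cut or modify pectin, the gel of the cell wall, rose more often than they fell. Pectate lyases cut pectin, and 7 of 18 rose with none falling and a median log2 fold change of 0.77, against 0.02 over all genes. The largest change was that of PCP023641, with 23.6, 24.97 and 27.7 FPKM in ‘RCF2’, against 2.39, 1.62 and 2.36 FPKM in ‘RCF1’ and a log2 fold change of 3.09 ± 0.12. Pectinesterases, which remove methyl groups from pectin, rose in 4 of 26 genes and fell in 1, and PCP012641 had 13.9, 14.8 and 18.8 FPKM in ‘RCF2’, against 0.527, 1.53 and 1.10 FPKM in ‘RCF1’. Polygalacturonases and other proteins of the pectin lyase fold rose in 5 of 21 genes and fell in 1. Pectinesterase inhibitors were split, with 5 of 24 risen and 9 fallen. The most abundant riser was PCP006814 with 46.9, 45.9 and 51.8 FPKM in ‘RCF2’, against 14.4, 15.8 and 24.5 FPKM in ‘RCF1’, and the steepest fall was that of PCP028856, which the annotation of the study calls an inhibitor of fructosidase, with 0.161, 0.167 and 0.286 FPKM in ‘RCF2’, against 92.3, 10.1 and 67.4 FPKM in ‘RCF1’. Replicate 2 of ‘RCF1’ was well below the other replicates there. Without ‘RCF1’ replicate 3 the risen inhibitors numbered 3, and PCP006814 was not called in 1 limma fit of all 12 libraries (unadjusted P = 0.128). That fit leaves the log2 fold change of ‘RCF2’ over ‘RCF1’ as it is (1.39). Its error is taken from the spread in all 12 libraries, those of ‘CF’ included. Pectate lyases, pectinesterases and polygalacturonases are also abundant in pollen, and the part of pollen in these values was not tested. The summed FPKM of the pectate lyases was between 282 and 291 in ‘RCF2’ and between 130 and 162 in ‘RCF1’. For the Ole e 1 proteins, named after an olive pollen allergen, the sum was between 3348 and 3560 in ‘RCF2’ and between 2984 and 3570 in ‘RCF1’, and 2 of 23 rose and 4 fell.

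Proteins that loosen or strengthen the wall moved in both directions. Among expansins and other Barwin-like proteins, 3 of 31 rose and 6 fell. PCP001960 had 4.08, 6.62 and 6.81 FPKM in ‘RCF2’, against 0.157, 0.110 and 0.0962 FPKM in ‘RCF1’, a log2 fold change of 2.58 ± 0.17, while the gene annotated as Expansin-A4 (PCP026323) fell, with 9.95, 10.6 and 11.2 FPKM in ‘RCF2’, against 28.8, 36.2 and 35.5 FPKM in ‘RCF1’. Xyloglucan endotransglucosylases cut and rejoin the hemicellulose that ties cellulose fibres together. Their list had 7 risen and 6 fallen of 51, but only 17 of these genes carried that domain name. Of the 17, 3 rose and 4 fell, with a median of -0.37. The other 34 carried the broader name concanavalin A-like lectin/glucanase, and 4 rose and 2 fell. The most abundant of the risen, PCP045054, had 285, 331 and 254 FPKM in ‘RCF2’, against 83.2, 103 and 123 FPKM in ‘RCF1’. The steepest fall was that of PCP040846, with 10.6, 10.5 and 8.42 FPKM in ‘RCF2’, against 199, 173 and 157 FPKM in ‘RCF1’ and a log2 fold change of -4.03 ± 0.11. Fasciclin-like arabinogalactan and COBRA proteins, which sit at the cell surface and bear on cellulose deposition, rose in 8 of 21 genes and fell in 2, with a median of 0.80. The most abundant of the risen, PCP029983, had 466, 574 and 525 FPKM in ‘RCF2’, against 200.3, 288 and 298 FPKM in ‘RCF1’. Its log2 fold change of 1.01 was 0.94 without ‘RCF2’ replicate 2 and 0.83 without ‘RCF1’ replicate 1, under the threshold, and in 1 limma fit of all 12 libraries PCP029983 was not called (unadjusted P = 0.285). PCP022169 changed the most, by 2.02 ± 0.13 on the log2 scale.

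Laccases and multicopper oxidases, many of which oxidise lignin precursors, rose in 9 of 33 genes and fell in 4, with a median of 0.79. The number risen was 14 without ‘RCF2’ replicate 1 and 14 after quantile normalization. The largest rise was at low FPKM, in PCP040693 with 3.22, 5.03 and 4.03 FPKM in ‘RCF2’, against 0.347, 0.456 and 0.415 FPKM in ‘RCF1’, and the ascorbate oxidase homolog PCP000913 had 39.9, 47.95 and 43.5 FPKM in ‘RCF2’, against 16.9, 13.4 and 15.1 FPKM in ‘RCF1’. PCP000913 was not called in 1 limma fit of all 12 libraries (unadjusted P = 0.126). Among dirigent proteins, which steer the coupling of phenolic radicals, 6 of 14 rose and 2 fell, and PCP023400 had 95.8, 84.00 and 78.7 FPKM in ‘RCF2’, against 27.2, 14.6 and 19.05 FPKM in ‘RCF1’. Adjacent members PCP028005 and PCP028006 rose by 1.34 and 1.99. How reads shared by close paralogs were divided is not given in the sources used here, so values of single members of such families are uncertain.

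Water channels and gibberellin-regulated proteins included some of the larger rises. The tonoplast aquaporin PCP030846, annotated as TIP1-3, had 162, 294 and 253 FPKM in ‘RCF2’, against 6.60, 7.42 and 10.9 FPKM in ‘RCF1’. This was the largest rise of all tested genes (4.66 ± 0.24, adjusted P = 1.09e-05), and the ‘RCF2’ libraries differed among themselves, replicate 1 being the lowest. A second gene of that annotation, PCP000936, had 135, 194 and 160.1 FPKM in ‘RCF2’, against 34.9, 34.02 and 52.1 FPKM in ‘RCF1’, and PCP004198 (TIP2-1), the most abundant aquaporin called, had 310.2, 440.4 and 374 FPKM in ‘RCF2’, against 131, 159 and 123 FPKM in ‘RCF1’. In 1 limma fit of all 12 libraries PCP000936 was not called (unadjusted P = 0.0715). In all, 6 of 34 aquaporins rose and 1 fell. Gibberellin-regulated proteins are small secreted peptides, and 2 of 10 rose and 1 fell. PCP033089 had 138, 112 and 144 FPKM in ‘RCF2’, against 11.97, 12.8 and 15.9 FPKM in ‘RCF1’, a log2 fold change of 3.19 ± 0.13, while PCP023700 fell, with 21.4, 18.8 and 19.4 FPKM in ‘RCF2’, against 79.9, 54.1 and 86.9 FPKM in ‘RCF1’. Subtilases, secreted proteases, rose in 6 of 43 genes and fell in 1, but only 3 rose without ‘RCF2’ replicate 2 or without ‘RCF1’ replicate 1.

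For the cuticle, WIN1 (PCP011340), the AP2/ERF factor that in Arabidopsis switches on wax and cutin genes, had 9.92, 9.48 and 11.4 FPKM in ‘RCF2’, against 1.04, 0.386 and 1.36 FPKM in ‘RCF1’, a log2 fold change of 2.58 ± 0.19. GDSL lipases, some of which polymerise cutin, rose in 6 of 50 genes and fell in 3, with PCP031196 at 81.7, 64.6 and 81.7 FPKM in ‘RCF2’, against 29.1, 27.4 and 24.1 FPKM in ‘RCF1’. PCP031196 was not called in 1 limma fit of all 12 libraries (unadjusted P = 0.0924). Genes with the broad domain name of the lipid transfer proteins were split into 6 risen and 7 fallen of 37. The most abundant riser, PCP028910, had 453, 428 and 499 FPKM in ‘RCF2’, against 191, 175 and 202 FPKM in ‘RCF1’, and the most abundant of the fallen, PCP020307, had 65.1, 68.8 and 71.5 FPKM in ‘RCF2’, against 231, 227 and 259 FPKM in ‘RCF1’. Of 15 fatty acid hydroxylases 1 rose and 2 fell.

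**Figure D3:**
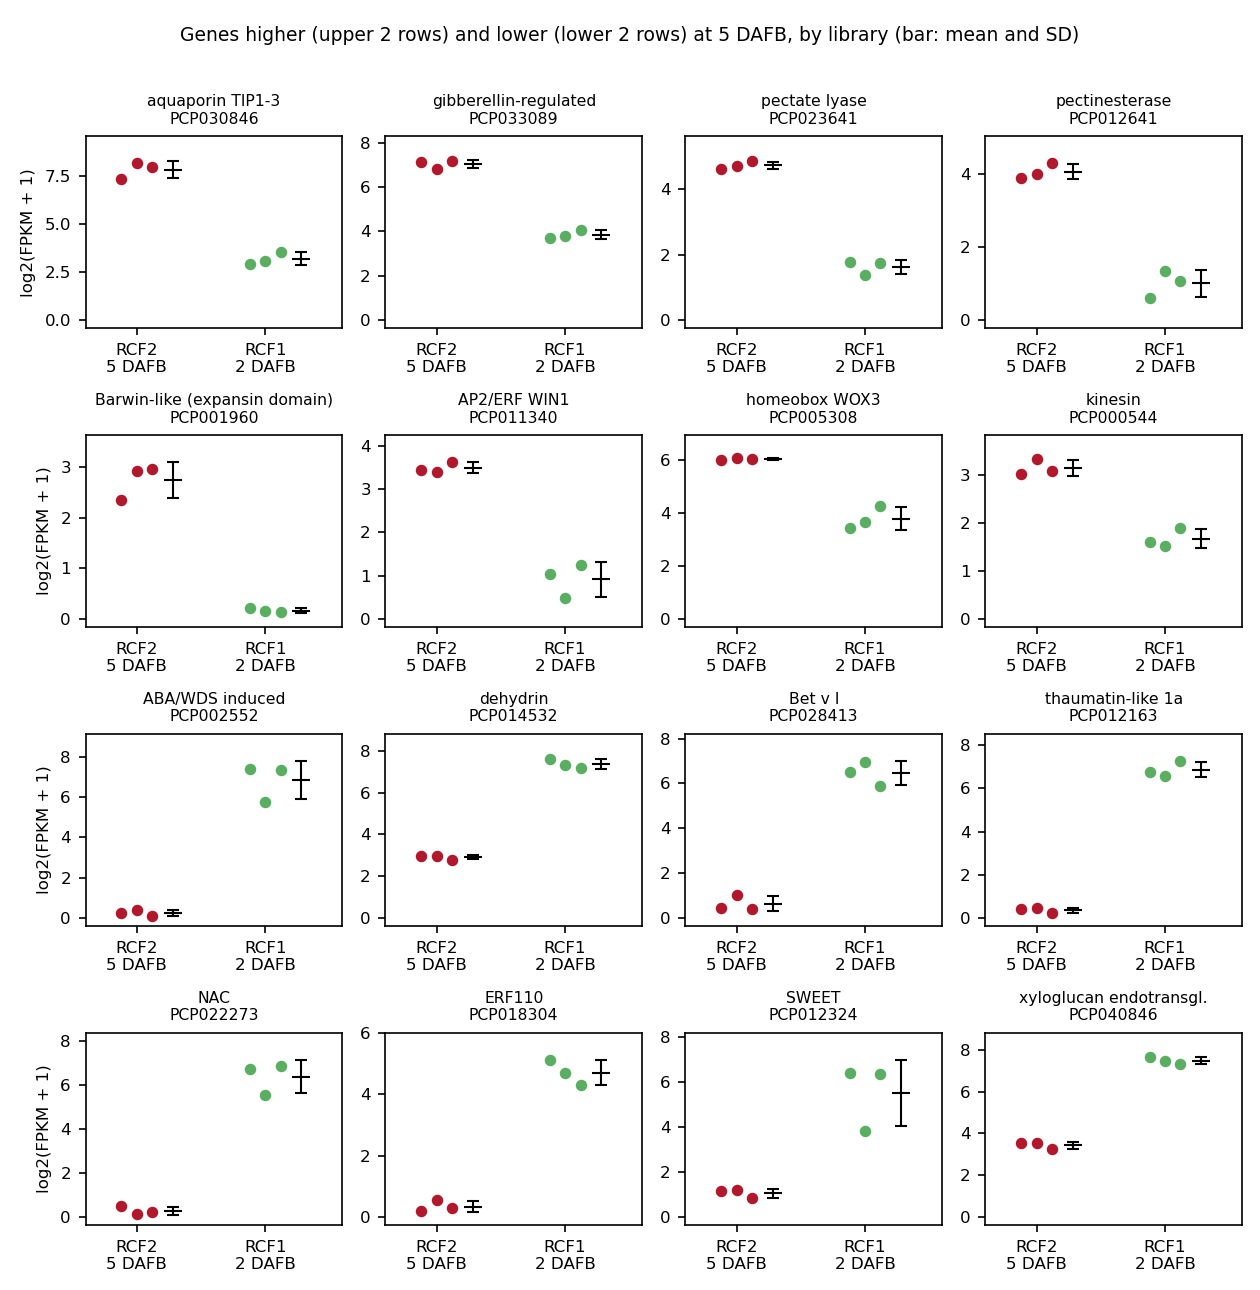
Level of 16 genes in log2(FPKM + 1) (vertical axis, a scale for each panel) in the 3 libraries of ‘RCF2’ (red, left) and of ‘RCF1’ (green, right), with the mean and SD of each group as a bar. The upper panels hold genes that rose, up to 4.66 on the log2 scale for the aquaporin, and the lower panels genes that fell, down to -6.59 for the ABA/WDS-induced gene, where replicate 2 of ‘RCF1’ lies below the other replicates.

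Cell division genes shifted upwards by small amounts. Kinesins are motors of the spindle and of the division plane, and 61 of 66 had a log2 fold change above 0, with a median of 0.54, although only 3 passed the fold threshold. PCP000544 had 7.09, 9.004 and 7.43 FPKM in ‘RCF2’, against 2.03, 1.88 and 2.71 FPKM in ‘RCF1’, the largest kinesin change (1.47 ± 0.13). For DNA replication proteins the median was 0.45, with 47 of 56 above 0, 6 risen and 2 fallen. The risen genes were at moderate levels, such as the catalytic subunit of DNA polymerase alpha (PCP024151) with 10.3, 10.96 and 9.72 FPKM in ‘RCF2’, against 2.999, 3.72 and 3.98 FPKM in ‘RCF1’ and MCM6 (PCP010031), part of the replicative helicase, with 19.8, 24.7 and 19.3 FPKM in ‘RCF2’, against 8.73, 9.07 and 11.4 FPKM in ‘RCF1’. MCM6 passed the fold threshold narrowly (1.05), and was at 0.95 without ‘RCF2’ replicate 2 and 0.99 without ‘RCF1’ replicate 1, and PCP010031 was not called in 1 limma fit of all 12 libraries (unadjusted P = 0.139). The number of replication proteins risen was 3 without ‘RCF1’ replicate 1 and 10 without ‘RCF1’ replicate 3. Cyclins and their partners had a median of 0.39, with 4 of 49 risen (1 without ‘RCF1’ replicate 1) and none fallen, led by a gene annotated as cyclin-D6-1 (PCP007372) with 13.7, 12.7 and 14.2 FPKM in ‘RCF2’, against 3.22, 2.25 and 4.13 FPKM in ‘RCF1’. With an adjusted P under 0.05 and no minimum fold change, 53 kinesins, 34 replication proteins and 26 cyclins were higher, and 3, 5 and 2 lower, beside 22.4% higher and 21.4% lower over all genes. Histones did not share the shift in size, with a median of 0.08 over 89 genes, 1 risen and 1 fallen. Genes with a ribosomal protein domain name had a median of -0.03 over 452 genes, with 1 risen and 4 fallen. Among these are 57 genes named for the ribosomal protein S5 domain 2-type fold, of which 2 fell. They may not all be ribosomal proteins.

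Photosystem and chlorophyll-binding proteins had a median of 0.24 over 114 genes, with 9 risen (7 without ‘RCF2’ replicate 3 or without ‘RCF1’ replicate 1) and 3 fallen. The largest rise, 2.42, was that of the PsbD gene PCP004387, which also belongs to scaffold01323, described below. Neighbouring chlorophyll a/b-binding genes PCP021260 and PCP021261 rose by 2.00 and 2.01, and PCP021260 had 204, 241 and 269 FPKM in ‘RCF2’, against 42.1, 63.9 and 74.02 FPKM in ‘RCF1’. By contrast a small-subunit gene of the carbon-fixing enzyme ribulose bisphosphate carboxylase, PCP032736, had 7.91, 7.34 and 12.4 FPKM in ‘RCF2’, against 75.4, 80.7 and 67.9 FPKM in ‘RCF1’.

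**Figure D4:**
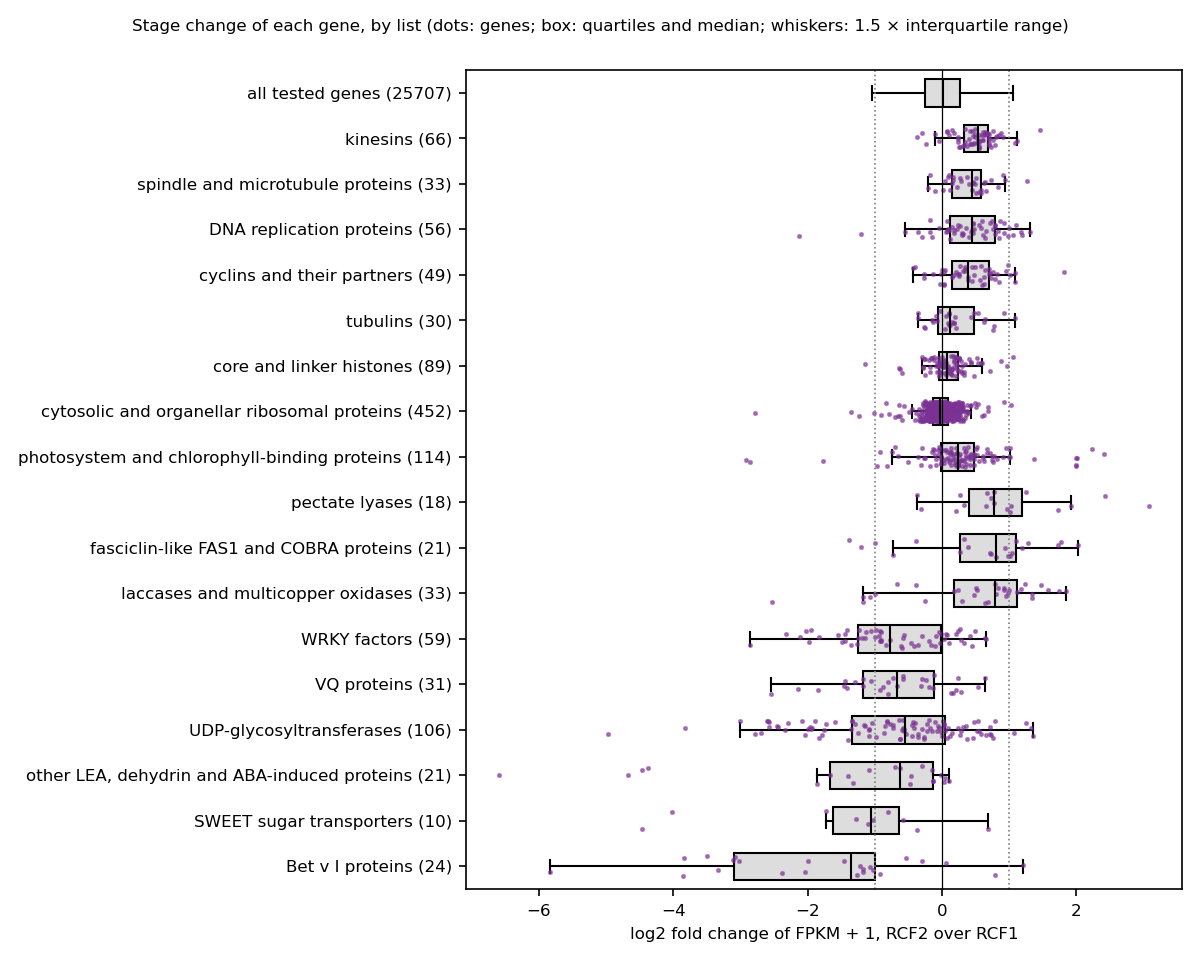
Log2 fold change of ‘RCF2’ over ‘RCF1’ (horizontal axis) for each gene (dots) of 17 lists and for all tested genes (number in brackets), with boxes at the quartiles, a line at the median, whiskers to 1.5 times the interquartile range and dotted lines at -1 and 1. Points beyond the whiskers are left out for all tested genes. Kinesins lie mostly above 0 and below 1, with a median of 0.54, while the Bet v I proteins reach -5.83 with a median of -1.36.

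A group of rises came from genes of the kind that the plastid itself carries. All 8 tested genes of scaffold01323, also all its genes in the table, rose, by between 1.77 and 3.57 on the log2 scale. This group was put together after their values were seen. Their domains include ATP synthase subunits, photosystem II proteins PsbD and PsbB, and Ycf2, names known from chloroplast genomes. The RNA polymerase domain Rpb1 is also among them, and its name is not particular to chloroplasts. The ATP synthase alpha subunit gene PCP004385 (bases 8066 to 12527) had 178, 232 and 409 FPKM in ‘RCF2’, against 17.6, 33.5 and 27.9 FPKM in ‘RCF1’, and the Rpb1 gene PCP004386 (bases 19227 to 21927) had 39.8, 30.1 and 64.97 FPKM in ‘RCF2’, against 2.30, 3.20 and 2.65 FPKM in ‘RCF1’. Replicate 3 of ‘RCF2’ was the highest library of its group in all 8 genes, up to 408.8 FPKM. PCP019154, named rpoB in the study and on another scaffold, was also highest in that library, with 29.99, 24.9 and 51.7 FPKM in ‘RCF2’, against 0.830, 2.71 and 1.89 FPKM in ‘RCF1’. Libraries were made from RNA captured by its poly(A) tail, and the part of that step in these values was not tested.

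**Figure D5:**
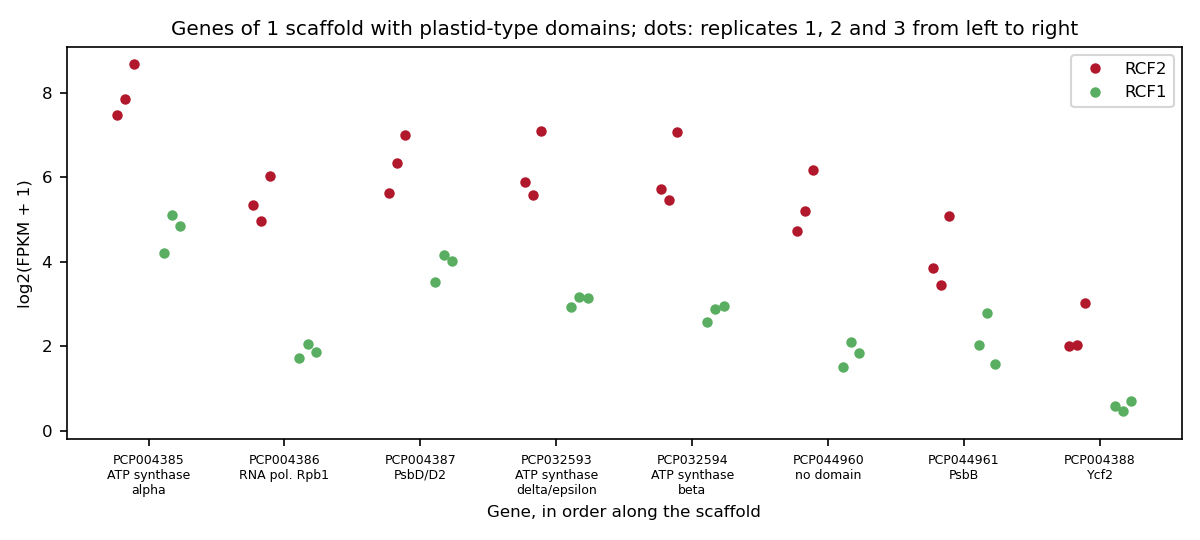
Level of the 8 genes of scaffold01323 in log2(FPKM + 1) (vertical axis), in order along the scaffold (horizontal axis), in ‘RCF2’ (red) and ‘RCF1’ (green), the 3 dots of a group being replicates 1, 2 and 3 from left to right. All ‘RCF2’ values of a gene lie above its ‘RCF1’ values, as for 29.8% of all tested genes, and replicate 3 of ‘RCF2’ is the highest in each gene.

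Genes known from drought, desiccation and defence were among the steepest falls, but not every family linked to defence fell. Of the dirigent proteins, whose domain name refers to disease resistance, 6 of 14 rose and 2 fell. The ABA/WDS-induced gene PCP002552 had 0.164, 0.330 and 0.0742 FPKM in ‘RCF2’, against 168, 53.3 and 163 FPKM in ‘RCF1’. All 3 ‘RCF2’ libraries were below 1 FPKM, and the log2 fold change was -6.59 ± 0.40 (adjusted P = 1.99e-05). The list of dehydrins, other late embryogenesis abundant (LEA) proteins and ABA-induced proteins, which protect cells that lose water, had 9 of 21 fallen, none risen and a median of -0.62. The dehydrin PCP014532 had 6.92, 6.79 and 5.88 FPKM in ‘RCF2’, against 196, 160.2 and 143 FPKM in ‘RCF1’, and the dehydrin PCP026218 fell by a similar amount (-4.67 ± 0.23). The most abundant of the fallen, PCP007419, annotated as senescence-associated gene 21, was still at 370.2, 438 and 343 FPKM in ‘RCF2’, against 1062, 867 and 962 FPKM in ‘RCF1’. The separate LEA-14 domain family had 15 of 62 fallen and 4 risen. HB7, a homeobox gene whose relatives are induced by abscisic acid and drought in Arabidopsis, had 61.5, 39.2 and 70.9 FPKM in ‘RCF2’, against 369, 239 and 325 FPKM in ‘RCF1’, a log2 fold change of -2.44 ± 0.23. Its relative HB12 (PCP031026) had 61.8, 44.3 and 71.3 FPKM in ‘RCF2’, against 158, 156 and 163 FPKM in ‘RCF1’. Another homeobox gene, PCP033132, fell further, with 1.41, 0.897 and 1.59 FPKM in ‘RCF2’, against 163, 77.4 and 158 FPKM in ‘RCF1’. Protein phosphatases 2C, some of which act in abscisic acid signalling, fell in 8 of 91 genes and rose in 1, a share of 8.79% fallen that is near the 6.71% over all genes, with a median of 0.01. The steepest of these falls was that of PCP005016, with 0.287, 0.359 and 0.203 FPKM in ‘RCF2’, against 59.8, 20.7 and 56.5 FPKM in ‘RCF1’.

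Among defence proteins the Bet v I family, to which the major apple allergen Mal d 1 belongs, had 18 of 24 fallen, 1 risen and a median of -1.36. PCP028413 had 0.373, 1.01 and 0.335 FPKM in ‘RCF2’, against 91.7, 123 and 58.1 FPKM in ‘RCF1’, a log2 fold change of -5.83 ± 0.27. The most abundant of the fallen was PCP028416, with 212, 221 and 215 FPKM in ‘RCF2’, against 1231, 1094 and 1063 FPKM in ‘RCF1’. The single riser, PCP030503, had 697, 496 and 655 FPKM in ‘RCF2’, against 275, 278 and 237 FPKM in ‘RCF1’, so at 5 DAFB it was the higher of the pair. Thaumatin-like proteins moved apart, with 2 of 20 fallen and 3 risen. PCP012163 (thaumatin-like protein 1a) had 0.330, 0.358 and 0.163 FPKM in ‘RCF2’, against 109, 93.8 and 152 FPKM in ‘RCF1’, a log2 fold change of -6.51 ± 0.17, while PCP028698 had 429.8, 430.3 and 487 FPKM in ‘RCF2’, against 131, 123 and 143 FPKM in ‘RCF1’. PCP028698 was not called in 1 limma fit of all 12 libraries (unadjusted P = 0.232).

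WRKY factors, regulators of defence and senescence, had 20 of 59 fallen, none risen and a median of -0.77. A gene named WRKY40, PCP031143, had 25.4, 42.2 and 28.7 FPKM in ‘RCF2’, against 139.6, 154 and 104 FPKM in ‘RCF1’, and a second of that name, PCP039671, had a log2 fold change of -2.12. The VQ proteins, partners of WRKY factors, had a median of -0.66. NAC factors fell in 24 of 97 genes and rose in 5 (8 without ‘RCF2’ replicate 3). PCP022273 had 0.386, 0.0930 and 0.148 FPKM in ‘RCF2’, against 107, 45.9 and 117 FPKM in ‘RCF1’, and PCP000139 had 0.128, 0.105 and 0.0769 FPKM in ‘RCF2’, against 46.02, 32.1 and 41.3 FPKM in ‘RCF1’. AP2/ERF factors, which include the ethylene response factors, fell in 32 of 142 genes and rose in 11. A pair of genes named ERF110, PCP018304 and PCP005779, fell, with log2 fold changes of -4.37 ± 0.20 and -4.30 ± 0.29, while AIL1 (PCP016390), of the AINTEGUMENTA type that keeps organs growing, had 19.7, 22.2 and 17.9 FPKM in ‘RCF2’, against 5.33, 5.16 and 7.19 FPKM in ‘RCF1’. MADS-box genes had 1 of 36 fallen, none risen and a median of -0.39. With an adjusted P under 0.05 and no minimum fold change, 17 of them (47.2%) were lower and 1 higher. Over all genes 21.4% were lower and 22.4% higher by that rule.

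Regulators of organ growth and outline were among the factors that rose. WOX3 (PCP005308), a homeobox gene of organ margins in Arabidopsis, had 62.8, 65.9 and 64.6 FPKM in ‘RCF2’, against 9.71, 11.7 and 18.2 FPKM in ‘RCF1’. PTL (PCP028526), a regulator of growth between floral organs in Arabidopsis, had 8.57, 7.60 and 7.88 FPKM in ‘RCF2’, against 1.10, 1.27 and 1.02 FPKM in ‘RCF1’. OVATE proteins, named for a gene of tomato fruit shape, rose in 3 of 17 genes with none falling, and growth-regulating factors rose in 4 of 25 (2 without ‘RCF1’ replicate 1) and fell in 1. ALOG proteins (DUF640) rose in 3 of 12 and fell in 1, with PCP015225 at 6.05, 5.89 and 6.90 FPKM in ‘RCF2’, against 0.234, 0.303 and 0.317 FPKM in ‘RCF1’. The median of the ALOG list was -0.007. Some regulator lists had equal numbers called each way, beside 3.54% risen and 6.71% fallen over all genes. These were 3 each of 32 TCP factors (9.38%), 6 each of 58 GRAS and DELLA factors (10.3%) and 2 each of 21 LOB factors (9.52%). With an adjusted P under 0.05 and no minimum fold change, 13 GRAS and DELLA factors were higher and 23 lower, with a median of -0.19. For TCP factors 11 were higher and 6 lower, and for LOB factors 6 and 4. The bHLH factors rose in 15 of 144 genes and fell in 10, and PCP000169 had 69.5, 58.8 and 69.5 FPKM in ‘RCF2’, against 11.5, 9.39 and 15.7 FPKM in ‘RCF1’. The list of homeobox factors had 12 of 112 risen and 14 fallen, and its 2 domain names differed. Of 42 genes named for the homeobox conserved site none rose and 8 fell. Of 70 genes with the broader name homeodomain-like 12 rose and 6 fell. Of the auxin-related lists, Aux/IAA and ARF factors had 4 of 33 risen and 2 fallen and SAUR proteins had 2 of 29 risen (4 without ‘RCF1’ replicate 2) and 7 fallen.

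Enzymes that decorate small molecules fell more often than they rose. UDP-glycosyltransferases, which attach sugars to hormones and phenolics, had 37 of 106 fallen, 4 risen and a median of -0.55. PCP044908 had 0, 0.0342 and 0.0288 FPKM in ‘RCF2’, against 37.6, 18.8 and 41.9 FPKM in ‘RCF1’. Cytochromes P450 fell in 41 of 163 genes and rose in 13, with a median of -0.48. PCP020722 had 3.52, 2.49 and 2.96 FPKM in ‘RCF2’, against 48.2, 32.8 and 58.6 FPKM in ‘RCF1’, whereas PCP019416 rose and had 13.3, 21.1 and 18.6 FPKM in ‘RCF2’, against 0.232, 0.176 and 0.535 FPKM in ‘RCF1’. Oxoglutarate/iron-dependent oxygenases, the class of ANS and F3H, fell in 25 of 83 genes and rose in 6, and 3 of the risen are ANS, F3H and PCP020363 with 158, 116 and 141 FPKM in ‘RCF2’, against 27.9, 25.7 and 24.7 FPKM in ‘RCF1’. BAHD acyltransferases went the other way in number, with 10 of 65 risen and 6 fallen. The fallen PCP007528 was listed at 0 in all 3 ‘RCF2’ libraries and had 21.4, 16.3 and 14.2 FPKM in ‘RCF1’.

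Carriers of sugars and amino acids fell more often than they rose. SWEET proteins let sugars pass through membranes, and 6 of 10 fell with a median of -1.06. PCP012324 had 1.23, 1.27 and 0.768 FPKM in ‘RCF2’, against 82.04, 13.00 and 81.3 FPKM in ‘RCF1’, with replicate 2 of ‘RCF1’ far below the other replicates. PCP000236 was listed at 0 in all 3 ‘RCF2’ libraries and had 25.3, 7.37 and 18.5 FPKM in ‘RCF1’. Amino acid transporters fell in 13 of 74 genes and rose in 3, and MATE transporters, efflux carriers that include vacuolar carriers of flavonoids, fell in 12 of 46 and rose in 4 (2 without ‘RCF2’ replicate 1 or without ‘RCF1’ replicate 1). In all, 37 fallen genes were listed at 0 in every ‘RCF2’ library, and 1 risen gene in every ‘RCF1’ library. Lists of low-oxygen and nitrate metabolism were small. Of 4 pyruvate decarboxylases, which start ethanol fermentation, 2 fell, and PCP025189 had 60.7, 50.9 and 49.2 FPKM in ‘RCF2’, against 105, 135 and 122 FPKM in ‘RCF1’. The alcohol dehydrogenase-type proteins, a broad class, had 7 of 35 risen (4 without ‘RCF1’ replicate 1) and 4 fallen. Both tested globins fell. Of 3 genes with nitrate or nitrite reductase domains 2 fell, among them the molybdenum oxidoreductase gene PCP020355, with 19.8, 23.5 and 21.2 FPKM in ‘RCF2’, against 80.8, 59.2 and 91.7 FPKM in ‘RCF1’.

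Whether these changes differed from those of the parent was tested as the stage change of ‘RCF’ minus that of ‘CF’ over all 12 libraries. By limma 1019 genes (3.96%) passed an unadjusted P under 0.05 with a difference of at least 1, and 0 passed with an adjusted P under 0.05 (smallest adjusted P 0.0594). The replicates of ‘CF1’ lay far apart, and the test was repeated without replicate 3 of ‘CF1’. This was the only exclusion for which adjusted counts were made. Without replicate 3 of ‘CF1’, 160 genes passed with an adjusted P under 0.05, of which 117 changed more upwards in ‘RCF’ and 43 more downwards. These 160 genes rest on that exclusion. The number called by the unadjusted rule was 718 without it and 2877 without replicate 2 of ‘CF1’. Among the genes named above, the flavonoid 3′-monooxygenase gene PCP020121 changed by 3.36 in ‘RCF’ and 0.36 in ‘CF’ without that library (adjusted P of the difference 0.00109, or 0.426 with it). CHS changed by 3.98 and 1.15 (0.0121, or 0.0594 with it), and the aquaporin PCP030846 by 4.66 and 2.16 (0.0111, or 0.686 with it). For ANS the changes were 3.75 and 2.92 and the difference did not pass (adjusted P = 0.122, or 0.188 with that library). For the steep falls, PCP002552 changed by -6.59 in ‘RCF’ and -8.26 in ‘CF’ without that library, and PCP012163 by -6.51 and -6.14, with adjusted P values of the difference of 0.346 and 0.846.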

How the data were processed

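RNA-seq of young pear fruit skin gave 12 libraries in 4 groups of 3 replicates. The authors deposited 1 table of FPKM values per gene, with each gene's scaffold, start, end, strand and domain name. Per the labels' processing notes Trimmomatic 0.38, HISAT2 2.1.0, StringTie 1.3.4d and DESeq2 were used, and no genome build is named. The study's text differs in its tools (NGS QC Toolkit for reads) and says that reads were mapped to an apple genome, and how that fits the table's gene and scaffold names is not stated, so positions are given as in the table. The table holds no counts, so no counting interval is given for single values.

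Genes reaching 1 FPKM in 3 or more libraries were kept, and log2(FPKM + 1) of the 6 ‘RCF’ libraries was fitted with limma 3.58.1 in R 4.3.3 (lmFit, and eBayes with a trend). A gene was called when its unadjusted P was under 0.05 and it changed by 1 or more on the log2 scale. Adjusted P values are Benjamini-Hochberg values over all tested genes, and errors of fold changes are standard errors. With 3 against 3 libraries, an exact permutation test on 1 gene could not reach a P below 0.1. The stage change of ‘RCF’ minus that of ‘CF’ was an interaction term over 12 libraries. Whether replicates came from separate trees is not given. If they did not, P values measure the spread between these samples, and this may be technical.

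The comparison and the 84 gene lists, made from words of the domain names, were chosen with earlier results of these data known. Named genes were the 8 largest and 8 smallest changes, genes named by the study, and in each list up to 4 called members each way and the called member with the highest FPKM, 478 in all, of which a selection is given. Domain families with at least 10 tested genes are described without a test. The fits were tested on simulated data. Alternatives were the pseudocount, the filter, the scaling, array weights, 1 fit of all libraries, the threshold, a replicate block and leaving out each replicate.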

Additional observations from a re-analysis of the deposited data

How the results depend on the processing

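The numbers of risen and fallen genes, 910 and 1726, depended most on the pseudocount and the thresholds. With a pseudocount of 0.1, 1519 genes had risen. With an FPKM of at least 10 in 3 libraries, 509 had risen and 1047 had fallen, fewer genes being tested. With changes of 2 or more on the log2 scale required, 94 had risen and 459 had fallen. Leaving out each replicate in turn gave 821 to 995 risen and 1598 to 1826 fallen genes. For the stage change of ‘RCF’ minus that of ‘CF’, 1019 genes were called, 0 with an adjusted P under 0.05, and between 718 (without ‘CF1’ replicate 3) and 2877 (without ‘CF1’ replicate 2) when a library was left out. The median log2 fold change of all genes was 0.02, and 0.08 after rescaling to TPM. Under the replicate block 914 genes had risen, 1726 had fallen and 1057 differed between cultivars. Same-numbered ‘RCF2’ and ‘RCF1’ libraries had correlations of deviations of 0.04, 0.00071 and -0.02, so the numbers were not taken as pairing the samples. Of the 81 genes named, 50 stayed on their side of the threshold under each of the 15 or 16 alternatives that could be run for them, and no gene changed direction in these. The filter at an FPKM of 10 left 72 of the 81 genes. List counts of 0 to 2 moved by at most 2 when a library was left out. Requiring a log2 change of 2 ended 30 calls, and 1 fit of all 12 libraries ended 7. In that fit the log2 fold changes were the same, and only their errors differed, being taken from ‘RCF’ and ‘CF’ libraries together.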
